A study of Mus musculus with 8 samples.

Results

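The 50 mouse genes described here are the kinesins and tubulins, taken as every symbol of the deposited gene list that begins with *Kif* and a digit, or with *Tuba*, *Tubb* or *Tubg* and a digit. They comprise 37 kinesin symbols and 13 tubulin symbols of 19465 genes in all. The rule is one of names, so it also takes *Kif1bp*, which encodes a kinesin-binding protein without a motor, and it leaves out kinesins that carry other names, such as *Cenpe* and *Kifc1*. Expression was measured with 10x Visium on 5 µm sections of formaldehyde-fixed, paraffin-embedded embryonic diaphragm. A spot is 55 µm wide and covers parts of several cells. The controls were 3 sections at E14.5 and 2 at E18.5, all of genotype "control". In the breeding scheme of the study control embryos keep at least 1 working allele of CaV1.1 and of β-catenin, so they may be heterozygous or carry floxed alleles. The CaV1.1 KO (labelled CaV1.1 -/-, the dysgenic mouse, 1 section at E14.5 and 1 at E18.5) lacks the voltage sensor of skeletal muscle in every cell. The β-cat cKO (labelled bCat cKO, 1 section at E18.5) lacks β-catenin only where HSA-Cre, driven by a skeletal muscle actin promoter, has acted. Each mutant group was thus 1 section without a replicate, and its tests assume that it varies as the control sections do. By the crosses of the study, the cKO embryo may lack 1 allele of CaV1.1. The KO embryos may carry HSA-Cre and a floxed β-catenin allele.

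Microtubules are hollow polymers of α- and β-tubulin, and γ-tubulin seeds them. Vertebrates encode several α- and β-tubulins in separate genes, and cell types differ in the mixture they use. Kinesins are ATP-driven motors that walk along microtubules with vesicles, organelles or mRNA, or that build and shorten the mitotic spindle. In developing muscle the centrosomal array of the myoblast is replaced on fusion by microtubules that start from the nuclear envelope and run along the fiber, and kinesin-1 spreads the nuclei along them. Dividing myoblasts need the mitotic kinesins, whereas nuclei inside fibers have left the cell cycle.

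The sections held from 14179161 UMIs (control E14.5 section 3) to 82859104 UMIs (control E18.5 section 1), with 491 to 3092 muscle spots each. The muscle spots were chosen by 9 sarcomere genes, none of them a kinesin or tubulin. The 9 genes summed to between 21642 and 27362 CPM (counts per 1000000 UMIs of the spots summed) in E14.5 control muscle and to between 128417 and 131917 CPM in E18.5 control muscle. They reached 16235 CPM in the KO at E14.5, 71384 CPM in the KO at E18.5 and 105199 CPM in the cKO. In the same order the 10 most abundant genes took 5.24% to 5.75%, 21.5% in both sections, 4.70%, 12.3% and 17.8% of the muscle UMIs. Because of this, CPM of single genes below are scaled by TMM, which holds the bulk of genes level. Sums of marker lists are CPM without TMM. Scaled by library size alone, the median of all genes would move by −0.721 on the log2 scale from E14.5 to E18.5, by 0.538 in the KO at E18.5 and by 0.217 in the cKO. Control E18.5 section 1 stood apart by cartilage genes in its muscle spots (960 CPM against at most 62.4 CPM elsewhere), and E18.5 control section 2 by neuron genes outside muscle (644 CPM against 18.7 to 352 CPM in the other 4 control sections, of which E14.5 section 1 was the highest). *Cacna1s*, which encodes CaV1.1, had 13.4 CPM in the KO at E14.5 against 15 to 18.4 CPM in controls, and 29.7 CPM in the KO at E18.5 against 84.4 and 87.3 CPM (edgeR adjusted p = 0.00133). *Ctnnb1*, which encodes β-catenin, had 96.2 CPM in the cKO against 105 and 97.4 CPM (edgeR adjusted p = 0.77). A probe outside the altered part of a gene, or β-catenin RNA of other cells in a spot, leaves such a check without force, and neither was tested here.

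Of the 50 genes, 47 passed the filter on low counts in muscle. *Tuba3a*, a testis-type α-tubulin, had 0 UMIs in all sections, a count that allows up to 3. *Kif2b* had 3 UMIs and *Kif12* 66 UMIs over all sections, and *Kif6*, *Kif9* and *Kif5a* were the lowest genes tested with 157, 227 and 288 UMIs. The probes capture genes with unequal yield, so levels are compared between sections and not between genes. The tubulins also share sequence. The coding sequence of *Tuba1a* is 98.3% identical to that of *Tuba1b* and 97.1% to that of *Tuba1c*, and *Tubb2a* is 96.5% identical to *Tubb2b*. The 3 *Tuba1* genes lie together on chromosome 15 (*Tuba1b* at chr15:98931425-98934565, *Tuba1a* at chr15:98949837-98953703, *Tuba1c* at chr15:99029891-99038110, GRCm38), and *Tubb2a* and *Tubb2b* lie side by side on chromosome 13 (chr13:34074274-34078007 and chr13:34126748-34130466). How far probes for these pairs separate them was not tested, and their values are uncertain to that extent.

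The promoters of *Kif11* and *Kif23* are shown because the 9 mitotic kinesins moved together in the results below. Promoters of genes expressed in G2 and M phase often carry a CHR element (TTTGAA, or TTCAAA on the other strand) near a CCAAT box (CCAAT, or ATTGG), and both motifs were searched on both strands in the 250 bases before each RefSeq start on GRCm38.p6. In lower case with the motifs in capitals, the *Kif11* window (chr19:37376132-37376381, plus strand) holds both motifs and the *Kif23* window (chr9:61946800-61947049, minus strand) a CCAAT box only. Neither window overlaps an exon of GENCODE vM21.
Kif11: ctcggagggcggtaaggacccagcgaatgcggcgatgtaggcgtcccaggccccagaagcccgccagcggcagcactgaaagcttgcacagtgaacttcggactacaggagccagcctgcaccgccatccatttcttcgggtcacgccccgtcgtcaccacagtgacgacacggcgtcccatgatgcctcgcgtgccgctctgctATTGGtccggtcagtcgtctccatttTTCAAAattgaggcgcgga
Kif23: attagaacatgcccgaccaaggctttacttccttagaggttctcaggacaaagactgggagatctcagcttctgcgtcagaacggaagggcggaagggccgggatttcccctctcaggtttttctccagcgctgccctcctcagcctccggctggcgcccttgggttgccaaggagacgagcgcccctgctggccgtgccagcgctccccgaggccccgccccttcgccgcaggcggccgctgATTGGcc
In *Kif11* the CHR begins 19 bases and the CCAAT box 45 bases before the start, and in *Kif23* the CCAAT box begins 7 bases before it. Of the 8 mitotic kinesins with a window read here, 4 held a CHR, 5 a CCAAT box, 3 both and 2 (*Kif18a* and *Kif20b*) neither. Exons of GENCODE vM21 covered all 250 bases of the *Kif4* window and 205, 129 and 51 bases of those of *Kif15*, *Kif18a* and *Kif22*. Among all 32851 promoter windows of this length, 16% held a CHR, 33.8% a CCAAT box and 5.55% both. A match of letters is a description of the window, and no binding was measured.

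The comparison of E18.5 with E14.5 asks which genes of the microtubule system change as the control diaphragm matures. Among the largest losses were those of the β-tubulins *Tubb6*, *Tubb2a* and *Tubb2b* and of all 9 mitotic kinesins. The largest gains included those of the α-tubulins *Tuba8* and *Tuba4a* and of the kinesins *Kif28*, *Kif16b* and *Kif1c*. Of 47 genes tested in muscle, 13 were higher and 21 lower at E18.5 (edgeR, adjusted p under 0.05). Of all 14832 genes tested, 33.2% were higher and 32.3% lower. Scaled by library size, 8 of the 47 were higher and 31 lower. In bulk sums such as these, fewer cells of a type and less RNA per cell cannot be told apart.

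*Tubb6*, a β-tubulin known from regenerating fibers, had 1477, 1114 and 1211 CPM in E14.5 sections 1, 2 and 3 and 493 and 366 CPM in E18.5 sections 1 and 2. The E14.5 values all lay above those at E18.5, with a log2 difference of −1.56 ± 0.18 (SE, edgeR adjusted p = 0.00016). *Tubb2a* had 398, 318 and 301 CPM against 118 and 96.3 CPM (log2 difference −1.67 ± 0.16). *Tubb2b*, its neighbor on chromosome 13 and best known from immature neurons, had 603, 459 and 449 CPM against 184 and 120.2 CPM (log2 difference −1.73 ± 0.22). The adjusted p values of these pairs were 5.26e-05 for *Tubb2a* and 0.000233 for *Tubb2b* in edgeR. *Tuba1a*, the α-tubulin of growing axons and other immature cells, fell less, from 796, 814 and 684 CPM to 464 and 381 CPM (log2 difference −0.86 ± 0.14, edgeR adjusted p = 0.000837).

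*Tuba4a* (chr1:75214228-75219865, GRCm38), an α-tubulin translated without a C-terminal tyrosine, went the other way. It had 19.6, 13.1 and 13.8 CPM at E14.5 and 78.6 and 60.8 CPM at E18.5, a 4.5-fold higher level (log2 difference 2.17 ± 0.19, edgeR adjusted p = 3.24e-05). *Tuba8*, an α-tubulin of striated muscle, was nearly absent at E14.5, with 0, 11 and 4 UMIs in muscle, and had 623 and 1161 UMIs at E18.5, which is 11.3 and 25.2 CPM. Its E18.5 sections thus differed from each other more than those of the other called tubulins (edgeR adjusted p = 4.62e-05 for the stage). *Tubb4b*, a β-tubulin expressed in most cells, had 98.2, 104 and 91.8 CPM against 132 and 121 CPM, a log2 difference of 0.36 ± 0.09 (edgeR adjusted p = 0.0071) that turned to −0.36 with library size scaling. *Tubg2*, the one γ-tubulin gene measured, had 4.64 to 4.98 CPM against 5.92 and 6.95 CPM (log2 difference 0.41 ± 0.15, edgeR adjusted p = 0.0445), which likewise turned to −0.31 under that scaling. *Tuba1b*, *Tuba1c*, *Tubb1* and *Tubb3* did not pass the test. *Tubb3*, the neuronal β-tubulin, ranged from 0.38 CPM in E18.5 section 1 to 6.88 CPM in E14.5 section 1, and its 2 E18.5 sections differed (0.38 and 3.52 CPM).

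**Figure D1:**
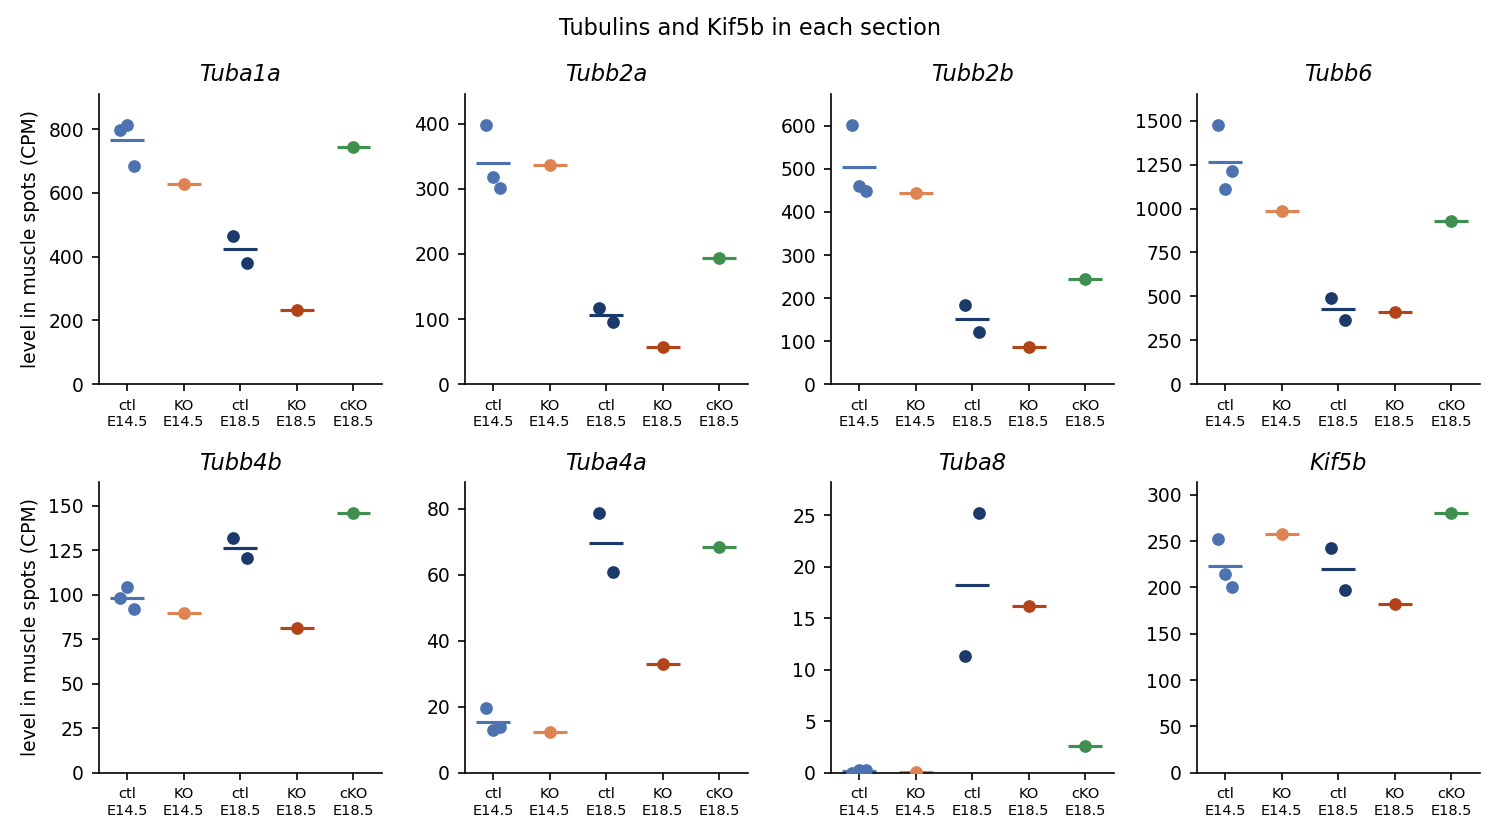
Levels of 7 tubulins and *Kif5b* in the muscle spots of each section, in TMM-scaled CPM on axes that start at 0, with 1 panel per gene, 1 point per section and a bar at the mean of each group (ctl, control). *Tubb6*, *Tubb2a* and *Tubb2b* are highest at E14.5 and *Tuba4a* is highest at E18.5. The β-cat cKO section lies above both E18.5 controls for all panels but *Tuba4a* and *Tuba8*. The CaV1.1 KO section of E18.5 lies below both for all but *Tubb6* and *Tuba8*. Not all of these differences were called.

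All 9 mitotic kinesins were lower at E18.5, with a median log2 difference of −1.74, where the median of all genes was −0.014. *Kif11*, the motor that pushes spindle poles apart, had 134, 131 and 115 CPM at E14.5 and 41.7 and 28.7 CPM at E18.5 (log2 difference −1.85 ± 0.16, edgeR adjusted p = 3.72e-05). *Kif15*, which can share this task, had 62.1, 56.2 and 65.5 CPM against 20.3 and 16.2 CPM. *Kif20b* and *Kif23*, which act at the midzone and in cytokinesis, fell by 1.97 and 1.57 on the log2 scale. *Kif22*, a chromosome-arm motor, fell least, from 45.8, 46.7 and 45 CPM to 20.5 and 17.7 CPM (log2 difference −1.26 ± 0.10). The calls of all 9 held under each alternative run for the stage. The other genes of division moved alike, with 42 of 42 G2M genes and 40 of 40 S genes lower at E18.5 (median log2 differences −1.67 and −1.69). Without TMM, markers of satellite cells and myoblasts (*Pax7*, *Myf5* and *Myog*, 3 of 3 lower) summed to 846 to 1009 CPM at E14.5 and to 262 and 274 CPM at E18.5. The study counts *Myf5* and *Myog* among genes of terminal muscle differentiation, so these sums do not separate myoblasts from differentiating fibers. The nerve glia markers *Sox10*, *Foxd3*, *Erbb3*, *Cdh19* and *Fabp7* summed to 252, 183 and 223 CPM in the same E14.5 spots and to 51.9 and 57.8 CPM at E18.5, with 1 of 5 called lower. The part of either list in the differences of the kinesins and tubulins was not tested.

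**Figure D2:**
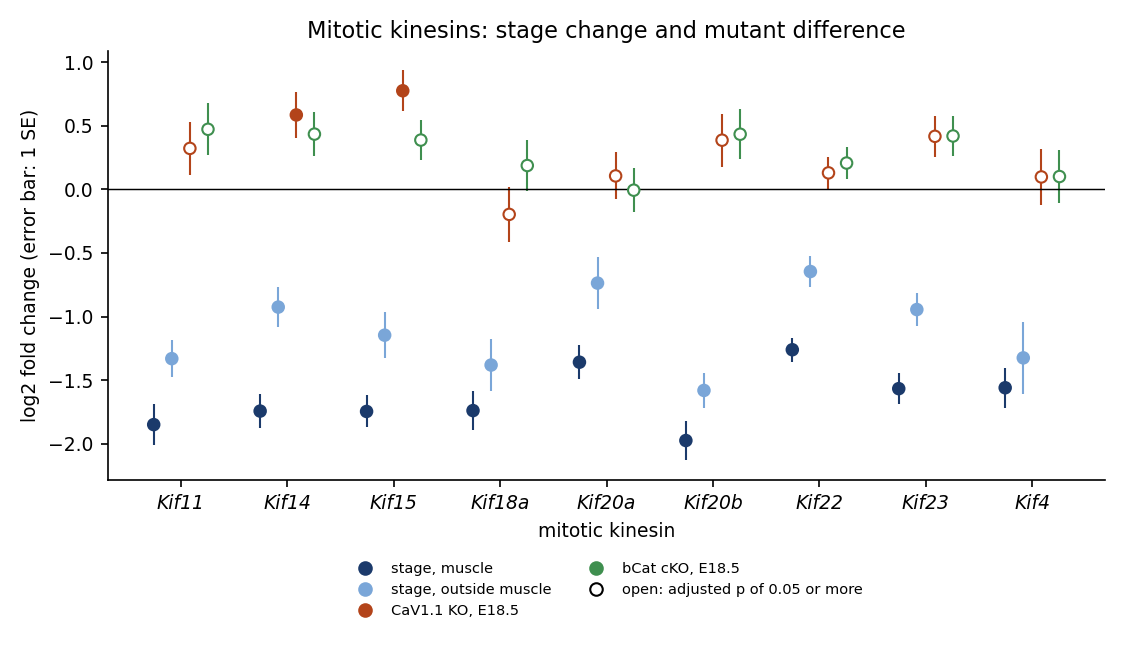
Log2 fold changes of the 9 mitotic kinesins for the stage (control E18.5 minus control E14.5) in muscle and outside muscle, and for each mutant minus control in E18.5 muscle, with bars of 1 SE and open points where the edgeR adjusted p was 0.05 or more. All stage points lie below 0, from −1.97 to −1.26 in muscle, and of the mutant points *Kif14* and *Kif15* of the CaV1.1 KO are filled.

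*Kif24* and *Kif21b*, which are not counted among the mitotic kinesins here, fell with them. *Kif24* (chr4:41390745-41464887, GRCm38), a depolymerizing kinesin of centrioles that restrains cilia, had 54.8, 46.6 and 54.1 CPM at E14.5 and 13.5 and 10.5 CPM at E18.5 (log2 difference −2.11 ± 0.14, edgeR adjusted p = 9.45e-06). *Kif21b* (chr1:136131389-136177998, GRCm38), a motor that also slows microtubule growth, had 40.7, 41.9 and 39.5 CPM against 9.81 and 7.91 CPM, the largest fall of the 47 (log2 difference −2.20 ± 0.12, edgeR adjusted p = 3.59e-06). *Kif26b*, which lacks ATPase activity and acts in noncanonical Wnt signalling, had 33.5, 36.8 and 40.1 CPM against 10.9 and 11.3 CPM (log2 difference −1.73 ± 0.11). Its relative *Kif26a* moved the opposite way, from 9.12, 9.34 and 7.98 CPM to 20.6 and 21.9 CPM (log2 difference 1.26 ± 0.11). *Kif7*, *Kif27*, *Kif6*, *Kif9* and *Kif19a*, of cilia and hedgehog signalling, were not called.

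Among the cargo motors, none of the 3 kinesin-1 heavy chains was called, and 4 of the 6 kinesin-3 genes were higher. *Kif5b*, the kinesin-1 heavy chain that positions muscle nuclei, had 252, 215 and 201 CPM at E14.5 and 242 and 197 CPM at E18.5, so that the stages overlapped (log2 difference −0.02 ± 0.13, edgeR adjusted p = 0.908). This rests on the scaling. By library size alone *Kif5b* had 289, 262 and 249 CPM at E14.5 and 176 and 144 CPM at E18.5, without overlap, and was called lower (log2 difference −0.74, edgeR adjusted p = 0.000526). Its neuronal relatives *Kif5a* and *Kif5c* stayed at or below 3.55 CPM in control muscle and were not called (−0.77 ± 0.34 for *Kif5c*, edgeR adjusted p = 0.0821). In kinesin-3, whose members carry vesicles and mitochondria over long distances, *Kif1c* had 93.8, 106 and 100.3 CPM against 358 and 372 CPM (log2 difference 1.87 ± 0.09, edgeR adjusted p = 2.41e-06). *Kif16b*, a motor of early endosomes, had 5.87 to 7.22 CPM against 25.4 and 24.9 CPM (log2 difference 1.93 ± 0.12). *Kif1b*, with a mitochondrial and a synaptic vesicle isoform that these counts do not separate, had 267, 208 and 204 CPM against 525 and 467 CPM (log2 difference 1.13 ± 0.14, edgeR adjusted p = 0.000204). *Kif13a* rose by 0.49 and turned to −0.23 with library size scaling, and *Kif13b* fell by 0.27.

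The subunits of kinesin-2, the motor of intraflagellar transport and of melanosomes and other cargo, did not move as 1 group. *Kif3a* had 33.1, 28.5 and 30.1 CPM against 19.3 and 19.6 CPM (log2 difference −0.65 ± 0.10), and *Kif3b* fell by 0.54. *Kif3c*, the subunit that can take the place of *Kif3b*, had 15.3, 17.3 and 14.9 CPM against 36.9 and 42.9 CPM (log2 difference 1.33 ± 0.11, edgeR adjusted p = 2.32e-05). *Kif17* had at most 2.70 CPM and was lower at E18.5 (edgeR adjusted p = 0.0106). Of the remaining kinesins, *Kif28* had 2.07 to 3.72 CPM against 17.2 and 14.8 CPM (log2 difference 2.43 ± 0.21), *Kif21a* rose by 0.88 (0.15 and not called with library size scaling) and *Kif2a*, which shortens microtubule ends, fell by 0.51. *Kif1bp* had 46.1 to 51.8 CPM against 70.2 and 79.8 CPM, a log2 difference of 0.61 that turned to −0.11 with library size scaling.

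**Figure D3:**
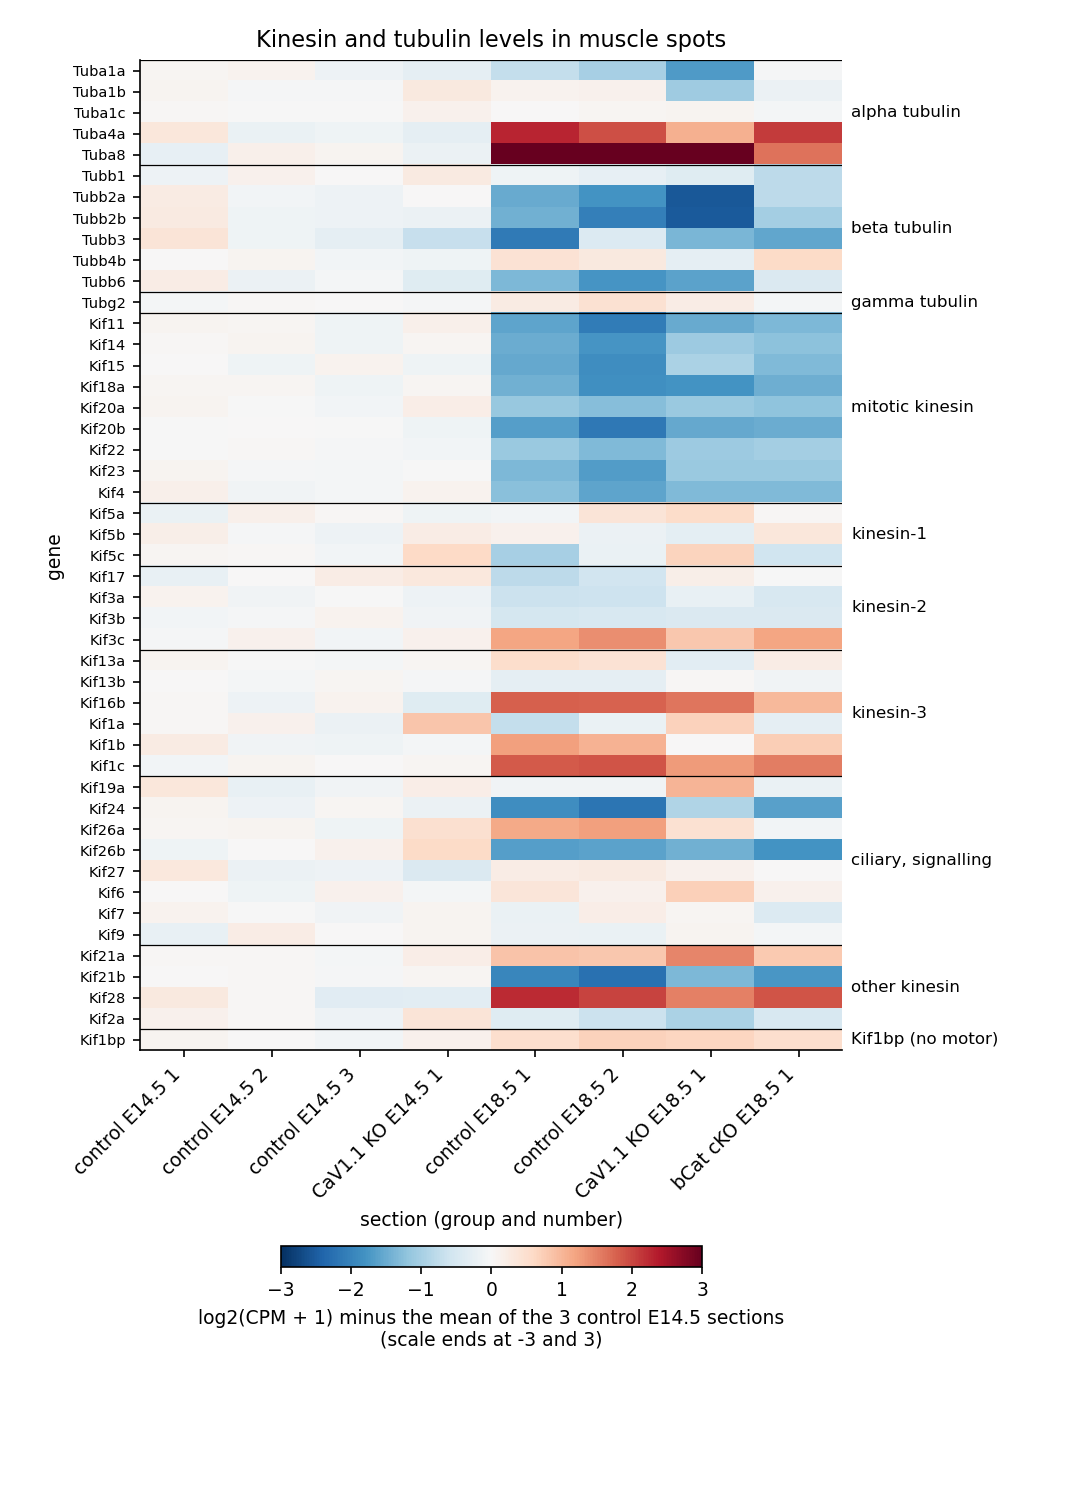
Heat map of the 47 genes that passed the filter, by role, in the muscle spots of the 8 sections. Color is log2(CPM + 1) minus the mean of the 3 control E14.5 sections, and the scale ends at −3 and 3. The 9 mitotic kinesins are blue in all E18.5 sections, *Tuba4a*, *Kif28* and *Tuba8* are red there, and *Kif5b*, on this TMM scale, is pale throughout.

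Genes that work with these motors, from 5 lists that hold none of the 50, moved both ways with the stage. Of the dynein and dynactin genes, 10 of 20 were higher and 5 lower (median 0.31), among them *Dync1i1*, an intermediate chain first known from neurons, at −1.95 ± 0.14. Of the kinesin partners and otherwise named kinesins, 10 of 20 were higher and 5 lower (median 0.41), with the mitochondrial adaptor *Trak1* at 1.73 ± 0.09 and the mitotic motors *Cenpe* and *Kifc1* at −1.82 ± 0.12 and −1.64 ± 0.11. Of the microtubule-associated proteins, 11 of 27 were higher and 6 lower (median 0.24), with the bundling protein *Tppp* at 2.80 ± 0.10. Of the genes of tubulin folding and modification, 6 of 19 were higher and 11 lower (median −0.29). Among them the tyrosine-removing vasohibin *Vash2* and its partner *Svbp* were at −1.39 ± 0.14 and −1.59 ± 0.11. Of the genes of nucleation, 2 of 13 were higher and 8 lower (median −0.46), and *Pcnt*, a scaffold at the nuclear envelope of fibers, was at 1.63 ± 0.11.

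Outside muscle, where connective tissue, tendon, mesothelium and nerve lie, 7 of 45 genes were higher and 12 lower at E18.5, with 18.6% and 15.9% of all genes (edgeR, 5 control sections). Scaled by library size, 5 were higher and 18 lower. The 9 sarcomere genes summed to 5636 to 8681 CPM in these outside spots at E14.5 and to 47828 and 31869 CPM at E18.5. Cartilage markers summed to 60.6 to 221 CPM there at E14.5 and to 1153 and 1338 CPM at E18.5. The part of muscle RNA and of the mix of tissues in the changes outside muscle was not tested. The 9 mitotic kinesins were again all lower, with a median log2 difference of −1.15, from *Kif20b* (−1.58 ± 0.14), *Kif18a* (−1.38 ± 0.20), *Kif11* (−1.33 ± 0.15) and *Kif4* (−1.32 ± 0.28) to *Kif22* (−0.65 ± 0.12). *Kif21b* (−1.90 ± 0.20), *Kif24* (−1.62 ± 0.16) and *Tubb6* (−0.91 ± 0.21) were the other 3 that fell. Higher were *Tuba8* (2.75 ± 0.51), *Kif16b* (1.57 ± 0.20), *Tuba4a* (1.53 ± 0.31), *Kif26a* (1.39 ± 0.29), *Kif1c* (0.92 ± 0.13), *Kif1b* (0.65 ± 0.20) and *Kif1bp* (0.58 ± 0.13), of which the last pair lost its calls with library size scaling. The difference of the 2 stage changes was tested in 1 fit with the section as a block, and it gave 8 genes with a higher and 8 with a lower change in muscle of 46 tested, beside 13.6% and 7.43% of all genes. With library size scaling these counts became 3 and 26. *Tubb2a* had the largest such difference among the tubulins that fell. In that fit it went from 441, 359 and 336 CPM to 132 and 111 CPM in muscle and from 215, 179 and 155 CPM to 132 and 168 CPM outside (difference of log2 changes −1.35 ± 0.18, edgeR adjusted p = 0.00447). *Tubb6* fell in both tissues, from 1635, 1256 and 1354 CPM to 555 and 421 CPM in muscle and from 562, 438 and 415 CPM to 285 and 204 CPM outside (difference −0.58 ± 0.11, edgeR adjusted p = 0.0147). *Kif3c* differed most among the kinesins, with 17, 19.5 and 16.7 CPM against 41.5 and 49.3 CPM in muscle and 32.9, 27.6 and 24.0 CPM against 24.9 and 29.7 CPM outside (difference 1.42 ± 0.17, edgeR adjusted p = 0.00389). *Kif1c* followed with 1.02 ± 0.12 and *Tuba4a* with 0.72 ± 0.18, and *Tuba8*, of few UMIs at E14.5, had 3.94 ± 0.80. *Kif5b* went from 279, 242 and 225 CPM to 272 and 227 CPM in muscle and from 205, 159 and 153 CPM to 132 and 108 CPM outside (difference 0.53 ± 0.09, edgeR adjusted p = 0.0108). With library size scaling this difference was 0.04 (edgeR adjusted p = 0.774). *Kif1b* (0.56 ± 0.12), *Tubb4b* (0.54 ± 0.11) and *Tuba4a* likewise lost their calls under that scaling (0.07, 0.06 and 0.25), and *Kif13a* (0.37 ± 0.11) turned to −0.12. *Kif3a* fell further in muscle by 0.48 ± 0.13. Of the mitotic kinesins *Kif11*, *Kif14*, *Kif15*, *Kif22* and *Kif23* fell further in muscle, by 0.48 to 0.78. The count of 16 calls fell to 5 without E14.5 section 2 and to 7 without E18.5 section 2.

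Within a stage, muscle spots held more *Tubb6*, *Tuba4a*, *Kif1b* and *Kif5b* than the other spots of their section. At E14.5, 12 of 45 genes were higher in muscle and 7 lower (all genes, 22.3% and 21.6%), and at E18.5 12 of 47 were higher and 10 lower (26.7% and 23.9%). Under library size scaling the counts were 8 and 10 at E14.5 and 6 and 25 at E18.5. *Tubb6* was 1.55 ± 0.06 higher on the log2 scale at E14.5 and 0.97 ± 0.12 at E18.5, and *Tuba4a* 1.73 ± 0.15 and 2.45 ± 0.13. *Tubb2a* and *Tubb2b* were 1.01 ± 0.05 and 1.18 ± 0.09 higher at E14.5, whereas at E18.5 they had −0.33 and 0.12 and were not called (edgeR adjusted p = 0.15 and 0.768). *Kif24* was higher in muscle at E14.5 by 1.0 ± 0.07. *Kif1b* was higher by 0.98 ± 0.06 and 1.55 ± 0.14, *Kif5b* by 0.49 ± 0.06 and 1.03 ± 0.09 and *Kif28* by 1.11 ± 0.30 and 2.33 ± 0.29. *Kif27* (0.84 ± 0.23 and 1.33 ± 0.39), *Tuba1a* at E14.5 (0.37 ± 0.08) and *Kif1c*, *Tubb4b* and *Kif3c* at E18.5 (0.93 ± 0.13, 0.72 ± 0.10 and 0.70 ± 0.10) were also higher, and these lost their calls with library size scaling. *Tuba8* was 1.82 ± 0.32 higher at E18.5. Among the lower genes were *Kif17* (−1.03 ± 0.30 and −2.09 ± 0.39) and *Kif21b* (−0.32 ± 0.10 and −0.56 ± 0.17) at both stages. *Kif26b* (−0.94 ± 0.06), *Tubg2* (−0.80 ± 0.19) and *Kif3c* (−0.72 ± 0.12) were lower at E14.5. At E18.5 *Kif7* (−1.38 ± 0.26), *Kif22* (−0.60 ± 0.11), *Kif3a* (−0.55 ± 0.12), *Kif15* (−0.44 ± 0.14) and *Kif11* (−0.37 ± 0.11) were lower. Lower in muscle at both stages were the neuronal kinesins *Kif1a* (−1.41 and −2.70) and *Kif5c* (−1.30 and −3.03), and at E18.5 *Tubb3* (−4.10 ± 0.20, edgeR adjusted p = 0.00175). Neuron markers, such as *Snap25* and *Prph*, summed to 20.3 to 36.6 CPM in control muscle and to 19 to 644 CPM outside it, and their part in the values of these 3 genes was not tested.

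**Figure D4:**
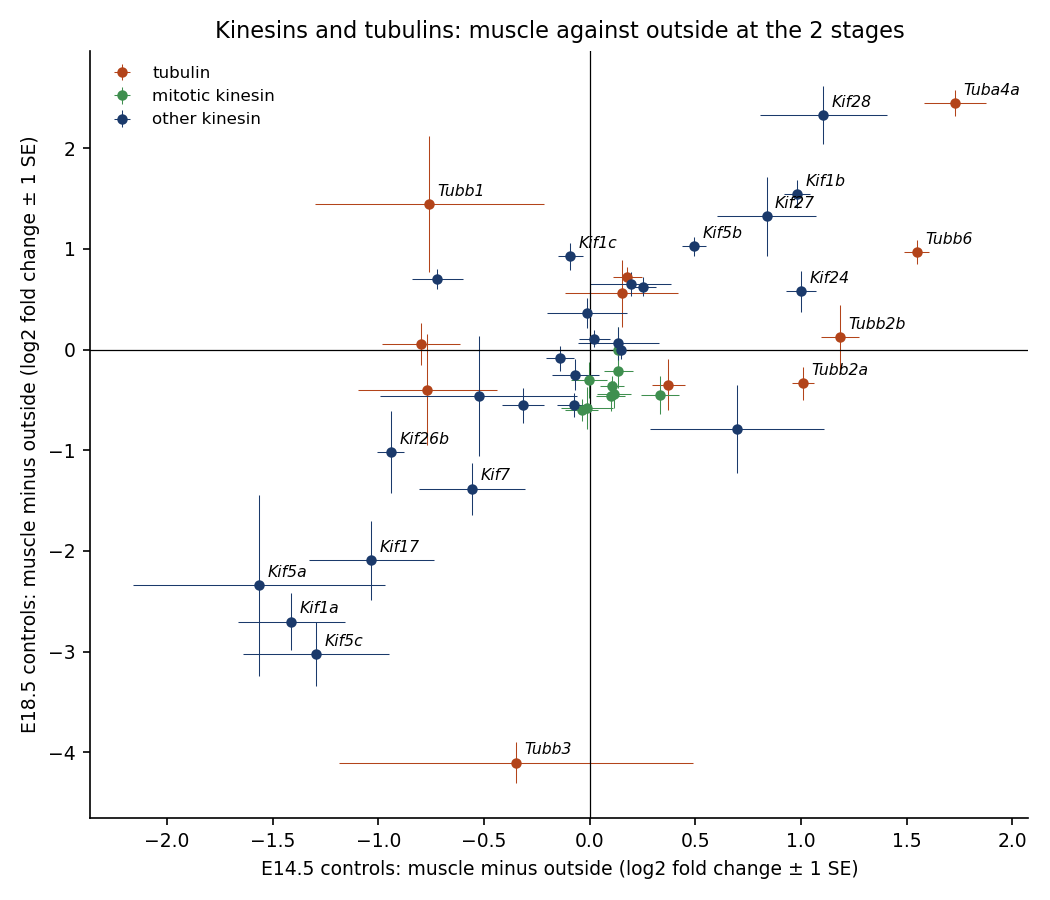
Difference between muscle and the other spots of the same sections (log2 fold change, bars of 1 SE) in E14.5 controls on the horizontal axis and in E18.5 controls on the vertical axis, 1 point per gene tested at both stages. *Tuba4a*, *Tubb6*, *Kif1b* and *Kif5b* lie above 0 on both axes, *Kif1a* and *Kif5c* below 0 on both, and *Tubb2a* and *Tubb2b* lie far right but near 0 on the vertical axis.

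The CaV1.1 KO removes the calcium channel that couples excitation to contraction, so these muscles do not contract. At E14.5 none of the 47 genes passed the test, where 0.533% of all genes were higher and 1.54% lower. In edgeR 5 of the 47 had an unadjusted p under 0.05, and DESeq2 called 1. This was *Kif26b*, with 54.9 CPM in the KO against 33.5, 36.8 and 40.1 CPM in controls (log2 difference 0.58 ± 0.12, edgeR adjusted p = 0.0638), which was also called when no filter on low counts was set. *Tubb6* had 983 CPM against 1114 to 1477 CPM (log2 difference −0.37 ± 0.22, edgeR adjusted p = 0.472), *Tubb2a* 337 CPM within the range of controls and *Kif5b* 258 CPM against 201 to 252 CPM (0.21 ± 0.17). The other abundant genes of each role lay between −0.31 (*Tuba4a*) and 0.74 (*Kif5c*).

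At E18.5 the KO section had less *Tuba1a*, *Tubb2a*, *Tuba4a* and *Tubb4b* and less *Kif1b*, *Kif1c* and *Kif13a* than control muscle, and more *Kif24*, *Kif15* and *Kif21b*. Of 47 genes, 10 were higher and 10 lower, beside 10.6% and 15.2% of all genes. Library size scaling turned this split to 20 higher and 3 lower, so the directions below are relative to the bulk of genes. *Tuba1a* had 233 CPM against 464 and 381 CPM (log2 difference −0.86 ± 0.18, edgeR adjusted p = 0.0143). *Tubb2a* had 57.2 CPM against 118 and 96.3 CPM (−0.90 ± 0.21), and *Tubb2b* 86.1 CPM against 184 and 120.2 CPM (−0.82 ± 0.28, edgeR adjusted p = 0.0701). *Tuba4a* had 33.0 CPM, below 78.6 and 60.8 CPM of the controls but above the 13.1 to 19.6 CPM of E14.5 (−1.08 ± 0.26, edgeR adjusted p = 0.0223). *Tubb4b* had 81.5 CPM against 132 and 121 CPM (−0.63 ± 0.12, edgeR adjusted p = 0.0103). The calls of *Tubb2a* and *Tuba4a* were lost without control E18.5 section 1, and with library size scaling those of *Tuba1a*, *Tubb2a*, *Tuba4a* and *Tubb4b* were lost (−0.32, −0.36, −0.54 and −0.09). *Tubb6* lay between the controls with 409.6 CPM against 493 and 366 CPM (−0.07 ± 0.23, edgeR adjusted p = 0.851), and with library size scaling it was 0.47 (edgeR adjusted p = 0.0721). *Tuba1b* had the largest difference, −1.95 ± 0.33 (edgeR adjusted p = 0.00613), with 14 UMIs in the KO against 171 and 146 UMIs, and it is the gene with the closest copies.

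*Kif1b* had 228 CPM in the KO against 525 and 467 CPM, within the range of the E14.5 controls (204 to 267 CPM), with a log2 difference of −1.12 ± 0.20 (edgeR adjusted p = 0.00729). *Kif13a* had 53.8 CPM against 97.9 and 91.9 CPM (−0.82 ± 0.11), and *Kif1c* 243 CPM against 358 and 372 CPM (−0.59 ± 0.13). *Kif26a* had 12.4 CPM against 20.6 and 21.9 CPM (−0.78 ± 0.16), and *Kif3c* was −0.48 ± 0.15 with an edgeR adjusted p of 0.0486, which turned to 0.06 with library size scaling. *Kif1c* and *Kif26a* lost their calls under it (−0.05 and −0.24). Among the genes with more UMIs, *Kif24* had 27.4 CPM against 13.5 and 10.5 CPM (1.19 ± 0.17, edgeR adjusted p = 0.00404). *Kif21b* had 15.3 CPM against 9.81 and 7.91 CPM (0.79 ± 0.15), and *Kif21a* 40.7 CPM against 26.3 and 25.5 CPM (0.65 ± 0.11). *Kif3a* had 26.04 CPM against 19.3 and 19.6 CPM (0.42 ± 0.13, edgeR adjusted p = 0.0473). Of the abundant genes of each role that were not called, *Kif5b* was at −0.27 ± 0.18, and the others besides the tubulins above lay between −0.47 (*Kif2a*) and 0.32 (*Kif11*). Of the 9 mitotic kinesins *Kif15* (0.78 ± 0.16, edgeR adjusted p = 0.013) and *Kif14* (0.59 ± 0.18, edgeR adjusted p = 0.0494) were called, and the median of the 9 was 0.32. Of the other genes of division 8 of 42 G2M and 15 of 40 S genes were higher and none lower.

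The neuronal kinesins *Kif5c* and *Kif1a* were also higher in the KO at E18.5, with 5.91 CPM against 1.20 and 2.80 CPM and 4.12 CPM against 0.95 and 1.76 CPM (1.57 ± 0.44 and 1.61 ± 0.41, edgeR adjusted p = 0.0359 and 0.0255). The 5 nerve glia markers summed to 159.6 CPM in this section's muscle spots against 51.9 and 57.8 CPM, with 4 of 5 higher and all 5 detected. Neuron markers summed to 28.8 CPM against 20.3 and 36.6 CPM with 2 of 9 at 0. These sums are without TMM, a scale on which the median of all genes moved by 0.538 (log2) in this KO. *Kif17* and *Kif19a* were higher at under 3 CPM (1.39 ± 0.39 and 1.89 ± 0.52, edgeR adjusted p = 0.0354 and 0.0345). The sarcomere genes that chose the muscle spots were themselves lower in this section (9 of 9, median −1.29). Satellite cell and myoblast markers stood at 580 CPM, also without TMM, against 262 and 274 CPM. The part of these levels in the values of the kinesins and tubulins was not tested. In the KO at E18.5, 10 of 27 microtubule-associated proteins were lower and 1 higher, led by *Tppp3* (−3.50 ± 0.21), *Tppp* (−2.71 ± 0.16) and *Map4* (−1.18 ± 0.13). The other lists gave 5 lower and 1 higher of the dynein genes, 5 lower and 2 higher of the kinesin partners, 3 and 3 of the tubulin modifiers and 2 higher and none lower in nucleation.

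The effect of the KO at E18.5 was larger or smaller than that at E14.5 for 4 of 47 genes in a test of the difference itself, 1 upward and 3 downward, where 2.22% and 4.18% of all genes were called. Under library size scaling the counts were 12 and 2. The 4 were *Kif24* (1.37 ± 0.24, edgeR adjusted p = 0.0278), *Tuba1b* (−2.33 ± 0.41), *Kif26a* (−1.30 ± 0.22) and *Kif13a* (−0.88 ± 0.15), the last without a call under library size scaling (−0.35). The other abundant genes of each role lay between −1.04 (*Kif1b*, edgeR adjusted p = 0.0558) and 0.91 (*Kif15*, edgeR adjusted p = 0.0544). None of the 4 was called without E14.5 control section 2 or without section 3, where the values of *Kif24* were 1.45 and 1.34 with adjusted p of 0.0504 and 0.0854 in edgeR.

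The β-cat cKO at E18.5 addresses the part of the muscle's own β-catenin. Its muscle spots held more of the tubulins that fall with age, *Tubb6*, *Tubb2a* and *Tuba1a*, than either control. Of 47 genes, 3 were higher and 3 lower, beside 3.18% and 5.62% of all genes, and library size scaling gave 12 and 3. *Tubb6* had 928 CPM in the cKO against 493 and 366 CPM in controls of the same age and 1114 to 1477 CPM at E14.5, 2.16 times the control level (log2 difference 1.11 ± 0.22, edgeR adjusted p = 0.0253). *Tubb2a* had 194 CPM against 118 and 96.3 CPM (0.86 ± 0.19, edgeR adjusted p = 0.0365). *Tuba1a* had 745 CPM against 464 and 381 CPM (0.82 ± 0.17, edgeR adjusted p = 0.0298). *Tubb2b* had 245 CPM against 184 and 120.2 CPM and was not called (0.69 ± 0.27, edgeR adjusted p = 0.157), but was with library size scaling (0.90, edgeR adjusted p = 0.0396). The calls of *Tubb6*, *Tubb2a* and *Tuba1a* were lost without E14.5 section 3 and without E18.5 section 2, where *Tubb6* had 1.11 and 0.91 (edgeR adjusted p = 0.0687 and 0.0718). Those of *Tubb2a* and *Tuba1a* were lost without E14.5 section 2 too (0.86 and 0.82, edgeR adjusted p = 0.0567 and 0.0505).

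Spot by spot, *Tubb6* reached a median of 7.2 UMIs per 10000 in the cKO muscle spots, with a 10th percentile of 4.32 and a 90th percentile of 13.1. These values are relative to the UMIs of each spot, without TMM. In the E18.5 controls the medians were 3.16 and 2.41 and the 90th percentiles 5.99 and 4.76. The median cKO spot thus lay above the 90th percentile of both controls. The KO at E18.5 had a median of 4.10, above both controls on this scale, where in TMM-scaled CPM it lay between them, and the E14.5 controls had medians of 13.6 to 17.8. Spots of a section share an embryo and are no replicates, so these values carry no test.

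Lower in the cKO were *Kif26a*, with 8.27 CPM against 20.6 and 21.9 CPM (log2 difference −1.36 ± 0.16, edgeR adjusted p = 0.00515), and *Kif16b*, with 13.8 CPM against 25.4 and 24.9 CPM (−0.86 ± 0.16, edgeR adjusted p = 0.0206). *Tuba8* had 2.64 CPM against 11.3 and 25.2 CPM (−2.79 ± 0.66, edgeR adjusted p = 0.0429), a call that DESeq2 did not make (adjusted p = 0.276) and that was lost without E14.5 section 3 or E18.5 section 2. *Tuba4a* (68.2 CPM against 78.6 and 60.8 CPM) and *Kif5b* (280.0 CPM against 242 and 197 CPM, 0.35 ± 0.18) were not called, and *Kif5b* was called with library size scaling (0.57, edgeR adjusted p = 0.0378). The other abundant genes of each role that were not called lay between −0.48 (*Tubg2*) and 0.47 (*Kif11*). None of the 9 mitotic kinesins was called, with a median of 0.39, and in edgeR 17 of the 47 genes had an unadjusted p under 0.05. Of the lists, microtubule-associated proteins gave 2 higher and 3 lower, kinesin partners 3 lower, tubulin modifiers 3 higher (*Vash2* at 0.91 ± 0.17, *Svbp* at 0.75 ± 0.14 and *Tbcd*), the dynein list 1 higher (*Dync1i1* at 1.54 ± 0.17) and nucleation none. Satellite cell and myoblast markers stood, without TMM, at 461 CPM in the cKO against 262 and 274 CPM, and their part was not tested.

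Compared with each other at E18.5, the mutants differed in the tubulins. Of 47 genes, 7 were lower and 1 higher in the KO than in the cKO, beside 4.43% and 2.87% of all genes, and with library size scaling 5 were lower and 11 higher. The 7 included *Tubb2a* (57.2 CPM in the KO, 194 CPM in the cKO, log2 difference −1.76 ± 0.24, edgeR adjusted p = 0.00675) and *Tuba1a* (233 and 745 CPM, −1.68 ± 0.21, edgeR adjusted p = 0.00536). *Tubb2b* (−1.51 ± 0.32), *Tubb6* (−1.18 ± 0.27), *Tubb4b* (81.5 and 146 CPM, −0.84 ± 0.14), *Tuba1b* (−1.54 ± 0.36) and *Kif13a* (−0.56 ± 0.12) were the others, and *Kif21a* was higher (0.70 ± 0.13). Library size scaling ended the calls of *Tuba1b* (−1.22) and *Kif13a* (−0.24). The other abundant genes of each role lay between −1.05 (*Tuba4a*) and 1.63 (*Kif5c*) and were not called. *Tuba1a*, *Tubb2a* and *Tubb4b* kept their calls under each alternative run, and *Tubb6* and *Tubb2b* lost theirs without E14.5 section 2 and without section 3. The tubulins called against both E18.5 controls in both mutants, *Tuba1a* and *Tubb2a*, thus lay below them in the KO and above them in the cKO, with the same controls in both comparisons.

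**Figure D5:**
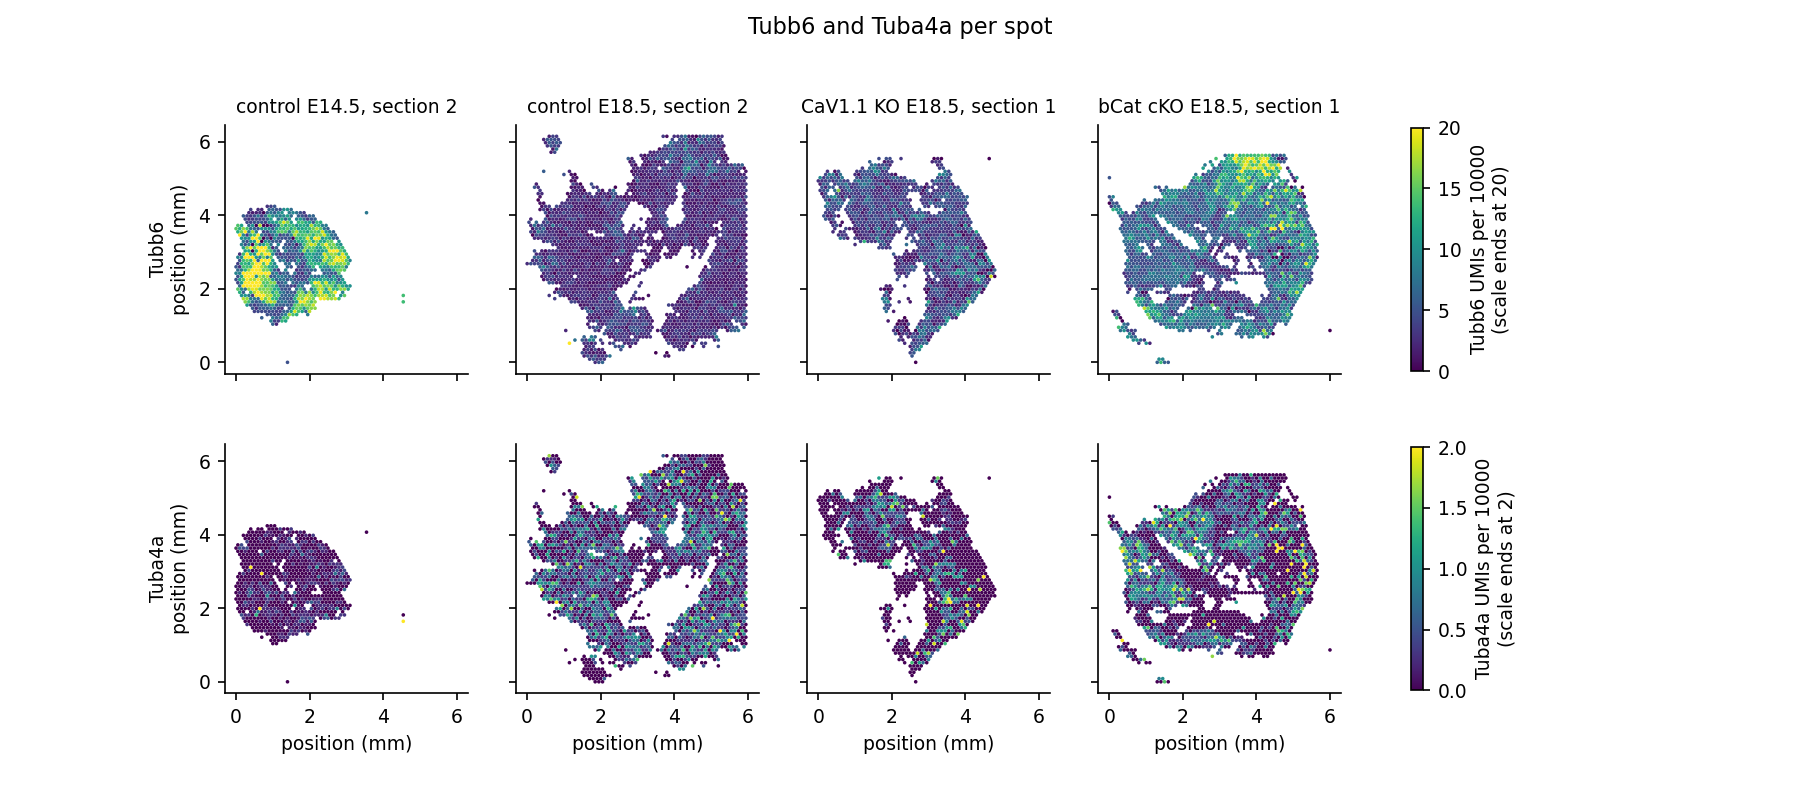
Maps of *Tubb6* (upper row) and *Tuba4a* (lower row) in control E14.5 section 2, control E18.5 section 2, the CaV1.1 KO at E18.5 and the β-cat cKO, with 1 dot per kept spot, axes in mm and color in UMIs per 10000 UMIs of the spot, on 1 scale per row that ends at 20 and at 2. *Tubb6* is brightest in the E14.5 section, with a median of 13.6 in muscle spots, and brighter in the cKO (7.2) than in the E18.5 control (2.41), and within the cKO its brightest spots form a patch at the upper edge. *Tuba4a* is near 0 in most spots at E14.5.

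Position along the fibers was compared within sections, with the section as a block. At E14.5 the center comprised the top 15% of muscle spots by a score from 8 genes of the endplate, and the periphery the top 15% by a score from 4 genes of the myotendinous junction (MTJ). The 3 β-tubulins that fell with age were higher in the center, and *Tuba1a* was higher in the periphery. Of 39 genes tested, 9 were higher in the center and 6 lower, beside 10.7% and 10.2% of all genes. *Tubb6* had 2035, 1720.1 and 1750.3 CPM in the center and 1526, 1155 and 1351 CPM in the periphery (log2 difference 0.46 ± 0.04, edgeR adjusted p = 7.98e-08). *Tubb2a* (0.52 ± 0.06), *Tubb2b* (0.39 ± 0.05) and *Tuba4a* (0.84 ± 0.16) had the same direction in 3 of 3 sections. *Tuba1a* had 782, 833 and 779.5 CPM in the center and 1138, 1233 and 889 CPM in the periphery (−0.44 ± 0.06, edgeR adjusted p = 3.31e-06). *Kif5b* had 349, 309.9 and 281 CPM against 273, 221 and 241 CPM (0.37 ± 0.06), and *Kif1b* and *Kif24* were 0.36 ± 0.05 and 0.66 ± 0.10 higher in the center. *Tubb3* (1.17 ± 0.30) and *Kif21a* (0.56 ± 0.16) were the other genes higher there. *Kif26b* had 26.9, 33.0 and 33.4 CPM against 62.6, 75.2 and 65.3 CPM (−1.15 ± 0.10, edgeR adjusted p = 2.09e-08), and *Kif2a* was −0.42 ± 0.07. *Kif5c* (−1.31 ± 0.35), *Tubg2* (−0.78 ± 0.27) and *Kif3c* (−0.60 ± 0.16) were lower in the center too. Tendon markers summed to 177 to 186 CPM in the center and 434 to 584 CPM in the periphery, and fibroblast markers to 7725 to 9361 and 12730 to 14132 CPM. Nerve glia markers went the other way, with 336, 272 and 287 CPM in the center and 176, 135.7 and 181 CPM in the periphery (5 of 5 higher), as did satellite cell and myoblast markers, with 1186, 1071 and 1187 against 829, 691 and 856 CPM (2 of 3 higher). Neuron markers summed to 21.8, 14.1 and 11.3 CPM in the center and 25.8, 27.3 and 19.4 CPM in the periphery. Spots of the center were also deeper, with medians of 26627.5, 55674 and 24165 UMIs against 15565, 47025.5 and 22301 UMIs in the periphery. The part of these lists and of depth in the differences was not tested. *Kif11* was not called (0.02 ± 0.07, edgeR adjusted p = 0.889).

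At E18.5 the same scores set off a neuromuscular junction (NMJ) region and an MTJ region, each compared with all other muscle spots in 2 sections, which leaves 1 residual degree of freedom per gene and a spread borrowed across genes. In the NMJ region 4 of 46 genes were higher and 4 lower, beside 7.15% and 6.91% of all genes, and library size scaling gave 7 and 2. The differences were small, with *Kif11* at 0.31 ± 0.07, *Tubb2b* at 0.20 ± 0.04, *Kif5b* at 0.11 ± 0.04 (193 and 154 CPM against 176 and 144 CPM), *Tubb4b* at 0.15 ± 0.04, *Tuba1a* at −0.14 ± 0.04, *Kif16b* at −0.24 ± 0.08, *Kif28* at −0.44 ± 0.11 and *Tuba8* at −0.66 ± 0.11. *Tuba1a* and *Kif16b* lost their calls with library size scaling. Nerve glia markers summed to 91.9 and 95.8 CPM in the NMJ region against 51.9 and 57.8 CPM in all muscle (5 of 5 higher than in other muscle), and satellite cell and myoblast markers to 300 and 314 against 262 and 274 CPM (3 of 3 higher), and the part of either was not tested. DESeq2 called 1 gene here in place of 8. In the MTJ region 8 of 47 genes were higher and 6 lower, beside 13.7% and 15.6%, and library size scaling gave 11 and 1. *Tuba1a* had 437 and 372 CPM in the MTJ region against 331 and 272 CPM (0.43 ± 0.04, edgeR adjusted p = 1.1e-05), *Tubb2a* 107 and 95.6 CPM against 84.6 and 68.6 CPM (0.40 ± 0.05) and *Tubb6* 419 and 310.5 CPM against 361 and 270.5 CPM (0.21 ± 0.04). *Tuba4a* had 46.0 and 33.6 CPM against 61.8 and 48.3 CPM (−0.47 ± 0.06, edgeR adjusted p = 9e-05), and *Kif1b* was −0.20 ± 0.04. *Kif26b* (0.45 ± 0.13), *Kif2a* (0.23 ± 0.05) and *Tubb4b* (0.18 ± 0.04) were also higher in the MTJ region, and *Kif28* (−0.35 ± 0.10), *Kif16b* (−0.29 ± 0.09), *Kif26a* (−0.29 ± 0.09) and *Kif3c* (−0.25 ± 0.07) lower. With library size scaling *Tuba4a* was the one lower gene that kept its call. *Tubb3* (1.5 ± 0.26) and *Kif5c* (1.23 ± 0.29) were higher at under 6 CPM, and 1 of the 4 genes of the MTJ score, *Uchl1*, is also a neuronal gene. Neuron markers summed to 21 and 63 CPM in the MTJ region against 20 and 37 CPM in all muscle, and tendon markers to 817 and 1212 against 294 and 401 CPM.

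Muscle spots with a high score of the S and G2M genes, which include none of the 50, are called cell-cycle-high spots here. Whether they hold more dividing cells was not tested. At E14.5 satellite cell and myoblast markers summed to 972, 781 and 937 CPM in them against 1009, 846 and 961 CPM in all muscle. These spots also differed in depth. In E14.5 sections 1, 2 and 3 their median was 50152, 66794 and 24848 UMIs, against 15660, 48284 and 21714.5 UMIs in other muscle spots. In E18.5 sections 1 and 2 it was 28975.5 and 27570.5 UMIs against 22819.5 and 27984 UMIs. The part of depth in the differences was not tested. In the 15% of E14.5 muscle spots with the highest score, 3 of 43 genes were higher and 5 lower, beside 3.29% and 4.48% of all genes, and library size scaling gave 4 and 3. The 3 were the mitotic kinesins *Kif22* (66.0, 64.0 and 61.5 CPM against 50.4, 55 and 53.8 CPM, log2 difference 0.27 ± 0.07), *Kif11* (0.21 ± 0.05) and *Kif15* (0.21 ± 0.06). *Tubb6* was lower there, with 1493, 1072 and 1368 CPM against 1833, 1421 and 1507 CPM (−0.28 ± 0.04, edgeR adjusted p = 0.000176). *Kif24*, which fell with age as the mitotic kinesins did, was lower too (−0.23 ± 0.07, edgeR adjusted p = 0.0329), as were *Tuba4a* (−0.39 ± 0.12), *Kif1b* (−0.20 ± 0.05) and *Tubb2b* (−0.17 ± 0.04). *Kif24* and *Tuba4a* lost their calls with library size scaling. Without E14.5 section 1, where the gap in depth was widest, the 8 calls fell to 1. At E18.5, 17 of 47 genes were higher and 9 lower, beside 23.6% and 24.6%, and library size scaling gave 32 and 5. All 9 mitotic kinesins were higher, from 0.41 to 0.65, with *Kif22* at 22.1 and 19.8 CPM against 14.1 and 12.5 CPM. *Kif5a* (1.59 ± 0.44), *Kif1a* (1.29 ± 0.30), *Kif17* (1.18 ± 0.35), *Kif5c* (1.07 ± 0.26) and *Tubb3* (0.71 ± 0.29) were higher at under 5 CPM, although *Tubb3* had 1 UMI in these spots of section 1. Neuron markers summed to 35.9 and 70.2 CPM there against 20.3 and 36.6 CPM in all muscle. *Kif1b* (−0.43 ± 0.04), *Kif5b* (159.5 and 121 CPM against 195 and 160.3 CPM, −0.34 ± 0.04), *Tuba4a* (−0.55 ± 0.06) and *Tuba8* (−0.84 ± 0.11) were lower, with *Kif28* (−0.64 ± 0.11), *Kif16b* (−0.54 ± 0.09), *Kif3c* (−0.33 ± 0.07), *Kif1c* (−0.31 ± 0.04) and *Kif13a* (−0.20 ± 0.05). With library size scaling *Kif5b*, *Kif1c* and *Kif3c* were not called (−0.0613, −0.0304 and −0.0451) and *Kif13a* turned to 0.0776. These spots held fewer UMIs of the sarcomere genes (105737 and 103934 CPM against 128417 and 131917 CPM in all muscle) and more of fibroblast markers (13039 and 18136 against 8325 and 10611 CPM), and the part of either was not tested.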

How the data were processed

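Visium libraries of 8 diaphragm sections were grouped by the genotype and stage of their labels. The authors made the matrices with Space Ranger (2.0.0 for control E14.5 sections 1 and 2 and the KO at E14.5, 2.0.1 for the others, per the file headers) and the mouse probe set v1.0 on mm10-2020-A, and deposited UMI counts per gene and spot without normalization. Control E14.5 section 3, the one E14.5 section made with 2.0.1, enters each stage comparison. A Moran's I score per gene was deposited too and was not used. Columns of other series were 0.

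Spots with at least 1000 UMIs were kept. Muscle spots lay above Otsu's threshold of the mean of 9 sarcomere genes (*Acta1*, *Actn2*, *Des*, *Myl1*, *Mylpf*, *Neb*, *Ryr1*, *Tnnt3*, *Ttn*). Regions were the top 15% of muscle spots by mean z-score of *Ache*, *Chrna1*, *Chrnd*, *Chrng*, *Etv5*, *Musk*, *Prkar1a* and *Ufsp1* (center, NMJ), of *Col22a1*, *Ankrd1*, *Rxrg* and *Uchl1* (periphery, MTJ) and of 41 S and 42 G2M genes. The UMIs of each region were added up by section and tested with edgeR 4.0.16 in R 4.3.3 (filterByExpr, TMM, quasi-likelihood F test, two-sided, Benjamini-Hochberg over all genes tested, adjusted p under 0.05 called), after a test on simulated data. Muscle was fitted over all 8 sections in 5 groups with 3 residual degrees of freedom. Region fits carried the section as a block, because its regions share an embryo, and the deviations of paired regions correlated at 0.186 to 0.813 across genes. Replicate sections differed by 13.0 to 64.7 times sampling noise (chi-square per degree of freedom). Errors after ± are SE of the log2 difference. CPM of a region comparison come from its own fit and are not comparable with those of another. Marker sums are CPM without TMM. Alternatives were DESeq2 1.42.0, library size scaling, no filter on low counts, a section left out, all kept spots, other region sizes and the block. Promoter sequences are RefSeq (GRCm38.p6), and gene positions and the tubulin coding sequences are GENCODE vM21.

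The genes to name were, in each comparison, up to 10 called genes per direction with the largest change and, for the stage in muscle and the mutants, *Kif5b*, *Tubb6*, *Tubb2b* and *Tubb2a* and the 2 most abundant genes of each role, some of which are given as a range. The kinesins and tubulins and all lists were chosen with earlier results of these data known. A comparison of nerve spots is not reported here.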

Additional observations from a re-analysis of the deposited data

Results flagged for a closer look

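For 20 values the effect of 1 contrast differed between stages or tissues by a test of the difference itself (edgeR, adjusted p under 0.05). The effect of the CaV1.1 KO differed between E18.5 and E14.5, in log2 units, for *Kif13a* (−0.88), *Kif24* (1.37), *Kif26a* (−1.30) and *Tuba1b* (−2.33), and with 1 KO section per stage the control sections alone supply the spread. The stage change differed between muscle and the spots outside it, being higher in muscle, for *Kif13a* (0.37), *Kif1b* (0.56), *Kif1c* (1.02), *Kif3c* (1.42), *Kif5b* (0.53), *Tuba4a* (0.72), *Tuba8* (3.94) and *Tubb4b* (0.54). It was lower in muscle for *Kif11* (−0.48), *Kif14* (−0.78), *Kif15* (−0.56), *Kif22* (−0.56), *Kif23* (−0.57), *Kif3a* (−0.48), *Tubb2a* (−1.35) and *Tubb6* (−0.58). In *Kif3c* the levels rose in muscle and stayed between 24.0 and 32.9 CPM outside, and in *Kif5b* the stages overlapped in muscle and not outside. With library size scaling the stages of *Kif5b* overlapped in neither tissue, and the difference of its changes was 0.04 (edgeR adjusted p = 0.774).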

How the results depend on the processing

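The counts of called genes for the stage in muscle (34, between 32 and 35 with a section left out) and for the CaV1.1 KO at E18.5 (20, between 14 and 19) stayed within 1.5 times of these values under each alternative run, and so did those of muscle against outside at both stages. For the KO at E14.5, DESeq2 and no filter each gave 1 in place of 0, and leaving out a section gave 0. For the cKO the 6 calls became 15 with library size scaling and 2 to 10 with a section left out. For the KO against the cKO the 8 calls became 16 with library size scaling, 4 over all kept spots and 3 to 11 with a section left out. The 4 differences of the KO effects became 9 with DESeq2, 14 with library size scaling, 7 without a filter and 0 to 7 with a section left out. The stage outside muscle gave 12 to 19 calls with a section left out. The 16 differences between tissues became 29 with library size scaling, 7 without the replicate block and 5 to 20 with a section left out. Center against periphery gave 9 with DESeq2 in place of 15. The NMJ region gave 1 and the MTJ region 6 with DESeq2. The cell-cycle-high spots gave 1 with DESeq2, 5 with the top 30% of spots and 1 to 6 with a section left out at E14.5. At E18.5 they gave 13 with DESeq2. Without the replicate block the NMJ, MTJ and cell-cycle-high comparisons gave 0 calls each, since the difference between sections then enters the error. Direction reversed in 11 values of single genes that had a call before or after the change of setting. With library size scaling these were *Tubb4b* (−0.36), *Kif1bp* (−0.11), *Tubg2* (−0.31) and *Kif13a* (−0.23) for the stage and *Kif3c* (0.0578) in the KO at E18.5. The same scaling reversed *Kif13a* in the difference between tissues (−0.12), in muscle against outside at E18.5 (−0.0216) and in cell-cycle-high spots at E18.5 (0.0776). The others were *Kif21a* for the KO against the cKO over all kept spots (−0.00435), *Tubb4b* with the MTJ region set by distance (−0.0361) and *Tubb3* in cell-cycle-high spots with DESeq2 (−0.38). Of the other values of single genes 1375 kept their side of the threshold, 393 lost and 9 gained a call. A change of sign without a call in either run is counted among the 1375. The cause of these changes was not tested.

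Control sections of both stages share the numbers 1 and 2, which pair no embryos: deviations of same-numbered sections correlated at −0.329 and −0.321. With the replicate block the calls were 32 for the stage, 17 for the KO at E18.5, 0 for the cKO, 6 for the KO against the cKO and 0 for the difference of KO effects.

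Depth limits the genes of few UMIs (*Kif6*, *Kif9*, *Kif5a*, *Tuba1b*, *Tuba8* at E14.5). The E18.5 region comparisons have 2 sections, so leaving one out leaves no residual degree of freedom and was not run.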
